A study of Rattus norvegicus with 12 samples.

Results

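The adult sarcomere and Z-disc proteins described here are 10 genes of the contractile apparatus of heart muscle: Tnnt2, Tnni3, Tnnc1, Tpm1, Myl2, Myl3, Mybpc3, Ttn, Actn2 and Ldb3. They were taken by name, as every probe set whose only gene symbol on the platform is one of these 10. This gave 23 of the 31042 probe sets and 10 of the 14217 genes named on the array. A filter on low signal left 20 of the 23 probe sets and at least 1 for each gene. The 3 that did not pass belong to Tnnt2 (1390061_at), Tpm1 (1370513_at) and Ldb3 (1394544_at). A gene with several probe sets is represented by the one with the highest mean over all arrays, called its main probe set below.

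RNA came from non-infarcted muscle of the left ventricular wall of male Sprague-Dawley rats. Diabetic rats had received streptozotocin, a toxin of the insulin-producing beta cells, at 65 mg/kg when 8 weeks old, and non-diabetic rats had received only its citrate buffer. After 10 weeks without glucose control the left anterior descending coronary artery was tied off, or a sham operation was done, and tissue was taken at 1, 7, 14, 28 or 56 days. Every array was hybridised with a pool of 3 rats, and the 12 arrays comprise 1 diabetic and 1 non-diabetic pool for sham and for each day. The labelled ages were 18 weeks for sham and day 1, 19 for day 7, 20 for day 14 and 22 for day 28. On day 56 the diabetic array is labelled 26 weeks and the non-diabetic one 22 weeks. The sham pools come from rats of the same 2 treatments without ligation, and their interval from operation to tissue collection (not given in the sources used here) remains unknown.

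The sarcomere is the repeating contractile unit of striated muscle. Calcium binding to the troponin complex shifts tropomyosin on the actin thin filament, which lets myosin heads of the thick filament bind and pull. Titin links thick filaments to the Z-disc, where actin filaments of neighbouring sarcomeres are crosslinked, and mutations in many of these genes are known to cause hypertrophic or dilated cardiomyopathy in humans.

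The RefSeq table of promoter windows, on rat build GRCr8, held a window from 250 bases before to 50 bases after the annotated start for 8 of the 10 genes, with Tnnc1 and Myl2 as the missing ones. The windows of 5 genes are shown because the array values below turn on them. Ttn, Mybpc3, Actn2 and Ldb3 each had a probe set above sham on day 56 at an unadjusted p under 0.05 in limma. None of these passed correction for multiple testing. Tpm1 holds the probe set with the largest change. Capitals mark matches to the MEF2 and CArG motifs, bound by MEF2 factors and serum response factor in muscle, and to GATAA, bound by GATA factors.
Ttn, chr3:82332061-82332360, minus strand: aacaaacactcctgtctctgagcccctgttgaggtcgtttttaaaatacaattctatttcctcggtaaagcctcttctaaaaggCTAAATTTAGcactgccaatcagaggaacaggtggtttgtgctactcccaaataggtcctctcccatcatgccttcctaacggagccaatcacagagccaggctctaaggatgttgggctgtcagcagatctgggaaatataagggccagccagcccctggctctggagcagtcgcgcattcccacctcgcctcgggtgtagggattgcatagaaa
Mybpc3, chr3:97550811-97551110, plus strand: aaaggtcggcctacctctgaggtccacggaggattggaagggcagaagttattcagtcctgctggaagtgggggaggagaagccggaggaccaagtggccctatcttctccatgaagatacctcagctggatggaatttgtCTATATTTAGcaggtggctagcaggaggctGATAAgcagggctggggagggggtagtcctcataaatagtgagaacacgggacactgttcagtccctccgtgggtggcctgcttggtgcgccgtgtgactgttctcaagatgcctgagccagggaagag
Actn2, chr17:62834805-62835104, plus strand: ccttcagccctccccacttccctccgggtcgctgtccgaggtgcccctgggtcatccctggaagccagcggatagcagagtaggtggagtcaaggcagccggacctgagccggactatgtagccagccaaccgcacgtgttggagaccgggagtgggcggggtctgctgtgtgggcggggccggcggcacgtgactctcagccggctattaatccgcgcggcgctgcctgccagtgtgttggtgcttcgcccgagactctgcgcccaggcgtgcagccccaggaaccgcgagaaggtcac
Ldb3, chr16:9924630-9924929, minus strand: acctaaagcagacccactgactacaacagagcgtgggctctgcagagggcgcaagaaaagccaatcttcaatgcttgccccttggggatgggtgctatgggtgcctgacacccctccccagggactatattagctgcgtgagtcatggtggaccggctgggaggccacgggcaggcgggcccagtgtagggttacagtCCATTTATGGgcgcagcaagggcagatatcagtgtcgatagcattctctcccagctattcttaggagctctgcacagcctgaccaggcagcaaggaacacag
Tpm1, chr8:76543366-76543665, minus strand: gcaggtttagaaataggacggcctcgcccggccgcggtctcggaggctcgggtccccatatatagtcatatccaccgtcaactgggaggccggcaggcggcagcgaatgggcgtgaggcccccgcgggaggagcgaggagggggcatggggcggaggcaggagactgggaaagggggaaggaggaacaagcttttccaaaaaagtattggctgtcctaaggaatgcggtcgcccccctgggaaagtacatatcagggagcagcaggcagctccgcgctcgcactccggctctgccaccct
Both strands were searched, and no capitals overlap another motif searched. The MEF2 motif was found in the Ttn window, at -166 to -157 from the start, and in the Mybpc3 window at -109 to -100, and 0.565% of all 33469 windows hold it. The CArG motif was found in the Ldb3 window at -52 to -43 and in that of Myl3, against 1.64% of all windows. The members had 9 windows, since Tnnt2 had 2. GATAA was in 3 of the 9, those of Tnni3 and Mybpc3 and 1 of Tnnt2, against 26.5% of all. The E-box CANNTG was in 7 of the 9 windows, against 72.1% of all, and CATTCC, the core bound by TEAD factors, in 4 of 9, against 14.2%. These matches describe letters in the windows only.

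On every array the tissue carried the signal of heart muscle. Of 12 cardiomyocyte markers outside the sarcomere, 11 had a probe set and all 11 passed the filter, with a summed intensity of 41397 to 53803 over the 12 arrays. On days 1 and 7 the beta-actin control differed from the other times, measured as its 3' minus its 5' probe set on the log2 scale, a value that grows as transcripts lose their 5' part. The 4 arrays of those days had 0.97 to 0.99 and the remaining 8 had 0.37 to 0.59, and the source of this was not tested. The GAPDH control, read in the same way, did not set these 4 arrays apart. Its difference was 0.32 and 0.36 for the diabetic and non-diabetic day 1 pools, and 0.32 in both day 7 pools. The remaining arrays spanned 0.11, in the diabetic day 56 pool, up to 0.48, in the non-diabetic day 28 pool. The split of days 1 and 7 from the rest thus rests on beta-actin alone. The median intensity of all probe sets was 28.8 to 34.7 per array.

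All values below are log2 of the deposited intensity plus 16 unless called intensities. Differences were fitted with limma over all 18625 probe sets that passed the filter, and called at an adjusted p under 0.05 (Benjamini-Hochberg over the 18625). No condition had a second array at a time point, so the error comes from the variation among the 6 diabetic minus non-diabetic pairs and holds no spread between single rats. In pieces of tissue, fewer muscle cells and less RNA per muscle cell cannot be told apart.

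In diabetic myocardium no adult sarcomere gene was called against non-diabetic myocardium, at 0 of 10 genes and 0 of 20 probe sets by limma. Of all probe sets tested 0.376% were called, and at an unadjusted p under 0.05 the members numbered 1 of 10 genes, against 10.6% of all probe sets. The median difference over the 10 genes was -0.03, against 0.01 over all 18625 probe sets.

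In the thin filament the differences of the main probe sets were small and narrowly bounded. Tnnt2, the troponin subunit that ties the complex to tropomyosin, read 12.65, 12.55, 12.59, 12.80, 12.91 and 12.81 on the diabetic sham, day 1, day 7, day 14, day 28 and day 56 arrays. The non-diabetic arrays in the same order read 12.84, 12.71, 12.59, 12.72, 12.83 and 12.74. The conditions overlapped, and diabetic arrays were higher at 3 of 6 time points. The difference was -0.02 ± 0.08 (SE, 6 pairs), with a 95% interval of -0.19 to 0.16. Tnni3, the inhibitory troponin subunit, had a difference of -0.08 ± 0.09. Tnnc1, the calcium-binding subunit, had 0.00 ± 0.08, with an interval of -0.19 to 0.19. Tpm1, alpha-tropomyosin, had -0.04 ± 0.08 in its main probe set. The smallest of these 4 adjusted p-values was 0.78. The other tested probe sets of Tpm1 ran from -0.24 to 0.32, with adjusted p-values in limma of 0.57 to 0.82.

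The thick filament gave the same kind of values. Myl2, the regulatory light chain of ventricular myosin, differed by 0.01 ± 0.08 in its main probe set, with an interval of -0.16 to 0.18. Its other probe set, 1388293_at, differed by 0.27 ± 0.16 (adjusted p = 0.58 in limma) and was higher in diabetic arrays at 5 of 6 time points. Myl3, the ventricular essential light chain, differed by -0.12 ± 0.08, and its diabetic array was below the non-diabetic one at 4 of 6 time points. Mybpc3, the myosin-binding protein C that restrains myosin heads, differed by -0.11 ± 0.15. Its pairs ran from -0.57 on day 14 to 0.56 on day 28, so its conditions overlapped widely.

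Ldb3, a PDZ and LIM protein that binds alpha-actinin in the Z-disc, was the member with an unadjusted p under 0.05. Its main probe set 1372737_at read 10.63, 9.84, 10.23, 10.86, 10.97 and 11.15 on the diabetic sham, day 1, day 7, day 14, day 28 and day 56 arrays. The non-diabetic arrays read 10.95, 10.80, 10.42, 11.33, 10.93 and 11.31 in that order. The diabetic array was lower at 5 of 6 time points, most on day 1 at -0.95, and day 28 was the exception at 0.05. The difference of -0.34 ± 0.14 did not pass the correction, with an adjusted p of 0.42 in limma. The other 4 tested probe sets of Ldb3 gave -0.46 to 0.02, with adjusted p-values of 0.48 to 0.98. Actn2, the muscle alpha-actinin that crosslinks actin at the Z-disc, differed by 0.01 ± 0.14, and Ttn, titin, by 0.39 ± 0.26 with an adjusted p of 0.63. The Ttn value moved with 1 pair and with the beta-actin difference, at 0.04 without the day 28 arrays and -0.14 with that difference as a covariate. With that covariate Actn2 was at -0.20, and neither gene was called.

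**Figure D1:**
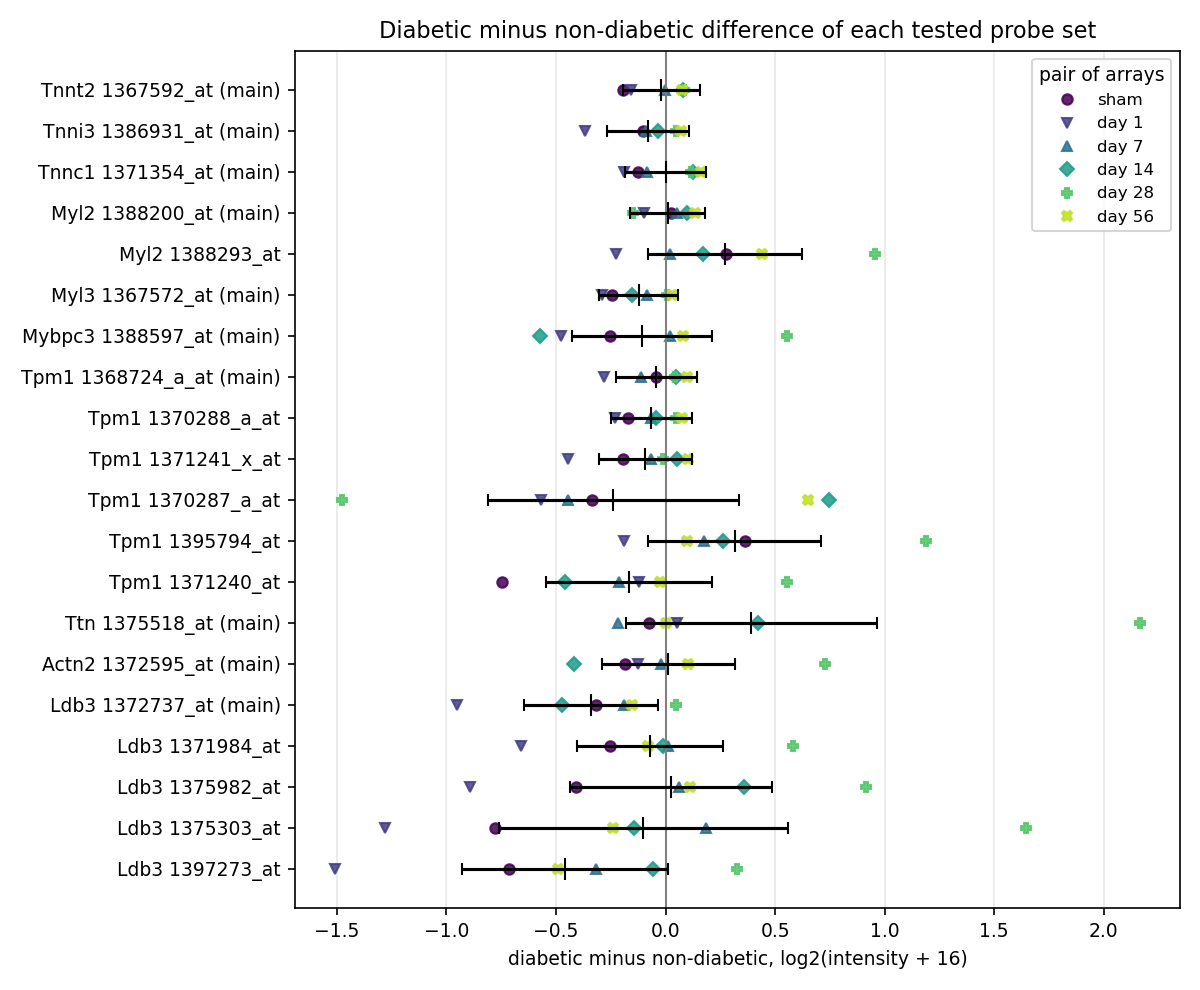
Diabetic minus non-diabetic difference in log2(intensity + 16) for the 20 tested probe sets. Points are the 6 pairs of arrays, the upright tick is the mean over pairs and the bar its 95% interval from limma. The tight rows are the troponins, the main probe sets of Myl2, Myl3 and Tpm1, and Tpm1 1370288_a_at and 1371241_x_at. The lone point at 2.16 is Ttn on day 28.

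Whether the probe sets of one gene differed from each other in their response to diabetes was tested for 26 pairs of probe sets of Tpm1, Ldb3 and Myl2. A two-sided exact sign-flip permutation test over the 6 time points, whose smallest possible p is 0.03125, reached that value for 4 pairs. After adjustment over the 26 their p was 0.20, and 0 pairs passed. The widest of the 4 was Ldb3 1375982_at over 1397273_at, whose difference of differences was 0.49 ± 0.13 (SD, n = 6 pairs) with one sign at all 6 time points.

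The diabetic minus non-diabetic difference was also compared between ligated and sham hearts and along the days. The interaction with ligation was called by limma in 0 of 10 genes, and 0 of 10 had an unadjusted p under 0.05; of all probe sets 0% were called and 0.671% had such a p. The interaction with log2 of the day was called in 0 of 10 genes, again with 0% of all probe sets, and 1 of the 20 members' probe sets had an unadjusted p under 0.05, against 4.5% of all. That one was Ldb3 1375982_at at 0.24 ± 0.10 per doubling of the day. All 20 probe sets had a value above 0 in this interaction, from 0.02 to 0.30 with a median of 0.10, against a median of 0.03 over all 18625. They share the same arrays and belong to 10 genes, so they are not 20 separate observations. The 11 cardiomyocyte markers outside the sarcomere were also all above 0, with a median of 0.09. So were 10 of 11 transcription factors of cardiac muscle genes, but only 13 of 28 other Z-disc and costamere genes. Among markers of other cell types, 6 of 6 for smooth muscle and pericytes were above 0, with a median of 0.14. The counts were 7 of 9 for macrophages, 5 of 9 for fibroblasts, 3 of 6 for endothelial cells and 0 of 3 for neutrophils.

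Several main probe sets belong to the brightest on the array. Those of Tnnt2, Tnni3, Tnnc1, Myl2, Myl3 and Tpm1 ranked within the 46 brightest of 31042 on every array. Their values lay between 12.37 and 12.97, and the range of each over all 12 arrays was 0.28 to 0.47. Whether the array signal was still proportional to RNA at this brightness was not tested.

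**Figure D2:**
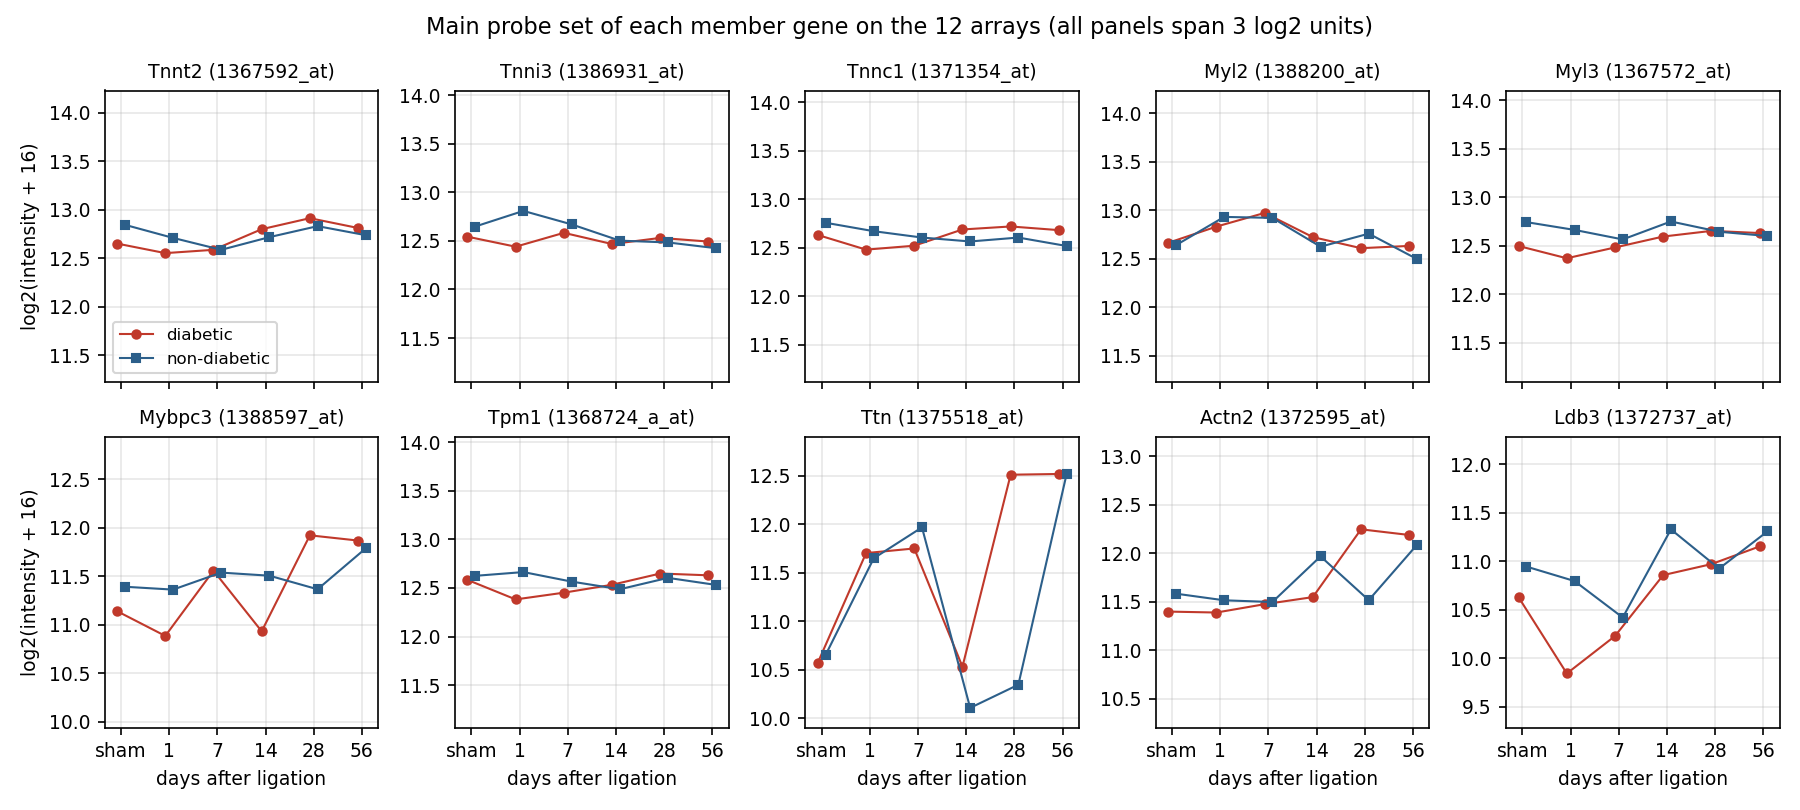
Main probe set of each of the 10 genes, log2(intensity + 16), by days after ligation for diabetic (circles) and non-diabetic (squares) arrays. Each point is 1 array of 3 pooled rats, and every panel spans the same height. The 6 brightest move by at most 0.47, while Ttn covers 10.11 to 12.52.

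After ligation the main probe sets of the 10 genes were not called on any day. On day 1 limma called 0 of 10 genes, where 7.47% of all probe sets were called (783 higher, 4.2%, and 609 lower, 3.27%), and 1 gene, Ttn, had an unadjusted p under 0.05. On day 7 it called 0 of 10, with 7.65% of all called (870 higher, 4.67%, and 554 lower, 2.97%), and again 1 gene, Ttn, had an unadjusted p under 0.05. Of all probe sets 25.5% had such a p on each of these days. With quantile normalization the splits of all probe sets were 588 higher and 687 lower on day 1, and 435 higher and 630 lower on day 7. The median of all probe sets on day 7 was 0.15 above sham as deposited and -0.03 after quantile normalization. All day comparisons share the same 2 sham arrays.

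One probe set of Tpm1 rose on day 1 and day 7 while the main one did not pass. Probe set 1371240_at read 9.03 on the diabetic and 9.15 on the non-diabetic array of day 1, and 8.98 and 9.20 on those of day 7. The sham arrays read 5.64 and 6.39. Days 14, 28 and 56 gave 6.25, 6.50 and 6.18 on diabetic arrays and 6.71, 5.95 and 6.20 on non-diabetic ones. The 4 arrays of day 1 and day 7 were thus well above the other 8, with no overlap, in both conditions. As intensities they were 490.5 to 571, against 33.9 and 67.7 in sham.

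The difference from sham of this probe set was 3.08 ± 0.30 on day 1 and 3.08 ± 0.30 on day 7 (SE, 2 arrays against 2), with limma's adjusted p at 0.00022 and 0.00027. After quantile normalization it was 2.92 and 2.88. Of the 18625 probe sets 31 were at least as far above sham on day 1, 25 on day 7 and 10 on both. It was the 1 of 20 members' probe sets called on each of these days. The median of the 20 was -0.09 on day 1 and 0.01 on day 7.

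The other tested Tpm1 probe sets did not pass. The main one, 1368724_a_at, lay at -0.08 ± 0.15 on day 1 and -0.10 ± 0.15 on day 7. Probe sets 1370288_a_at and 1371241_x_at lay at -0.28 and -0.07 on day 1, and 1370287_a_at at -0.22. Probe set 1395794_at read 0.87 ± 0.31 on day 1 and 0.96 ± 0.31 on day 7, with adjusted p-values of 0.11 and 0.084. Without the day 28 pair it was called on both days, at adjusted p-values of 0.032 and 0.020. Tpm1 is known to give several tissue-specific tropomyosins by alternative exons, and the files do not say which exons each probe set reads.

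The difference between probe sets of one gene was then fitted directly with limma, as the other minus the main probe set, for all 3687 such pairs on the array, a test chosen after the values were seen. For Tpm1 1371240_at the difference rose by 3.16 ± 0.25 on day 1 (adjusted p = 5.5e-05) and by 3.17 ± 0.25 on day 7 (adjusted p = 7.4e-05). Of all pairs 15.6% were called on day 1 and 17% on day 7. Tpm1 1395794_at rose against the main probe set by 0.95 and 1.05 on these days. Ldb3 1371984_at rose against its main probe set by 0.62 and 0.86, and Ldb3 1375982_at by 1.12 on day 7. These 3 were called too, so probe sets of Tpm1 and of Ldb3 changed unequally in the first week. Against sham the main Ldb3 probe set itself lay at -0.47 on day 1 and -0.46 on day 7, and 1371984_at at 0.15 and 0.40. Ldb3 1397273_at lay at -0.98 and -1.06, with limma's adjusted p at 0.12 and 0.10. None of these was called against sham. Without the day 28 pair 1397273_at was called lower on day 7 (limma adjusted p = 0.044).

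The beta-actin difference and the cell markers on these arrays were as follows. The same 4 arrays had the high beta-actin 3' minus 5' difference given above. With that difference as a covariate the Tpm1 value was 5.28 on day 1 and 5.22 on day 7. Limma's adjusted p-values were 0.038 and 0.031. Both sizes exceed 3.55, the whole range of this probe set over all arrays. The covariate is nearly the same split as days 1 and 7 against the rest, so these sizes cannot be relied on. The 9 fibroblast markers, all 9 measured, summed to 6654 and 7163 in intensity on the diabetic and non-diabetic day 1 arrays, 25983 and 26485 on day 7, and 8306 and 10735 in sham. The 9 macrophage markers summed to 5898 to 7755 on the 4 arrays and to 944 to 7308 on the other 8, sham included. Of 5 neutrophil markers 4 had a probe set, and these summed to 1886 and 806 on the diabetic and non-diabetic day 1 arrays, 133 and 121 on day 7, and 187 and 302 in sham. The 6 smooth muscle and pericyte markers summed to 664 to 1830 on the 4 arrays and to 851 to 1900 on the other 8. The part of these cell types in the Tpm1 value was not tested.

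**Figure D3:**
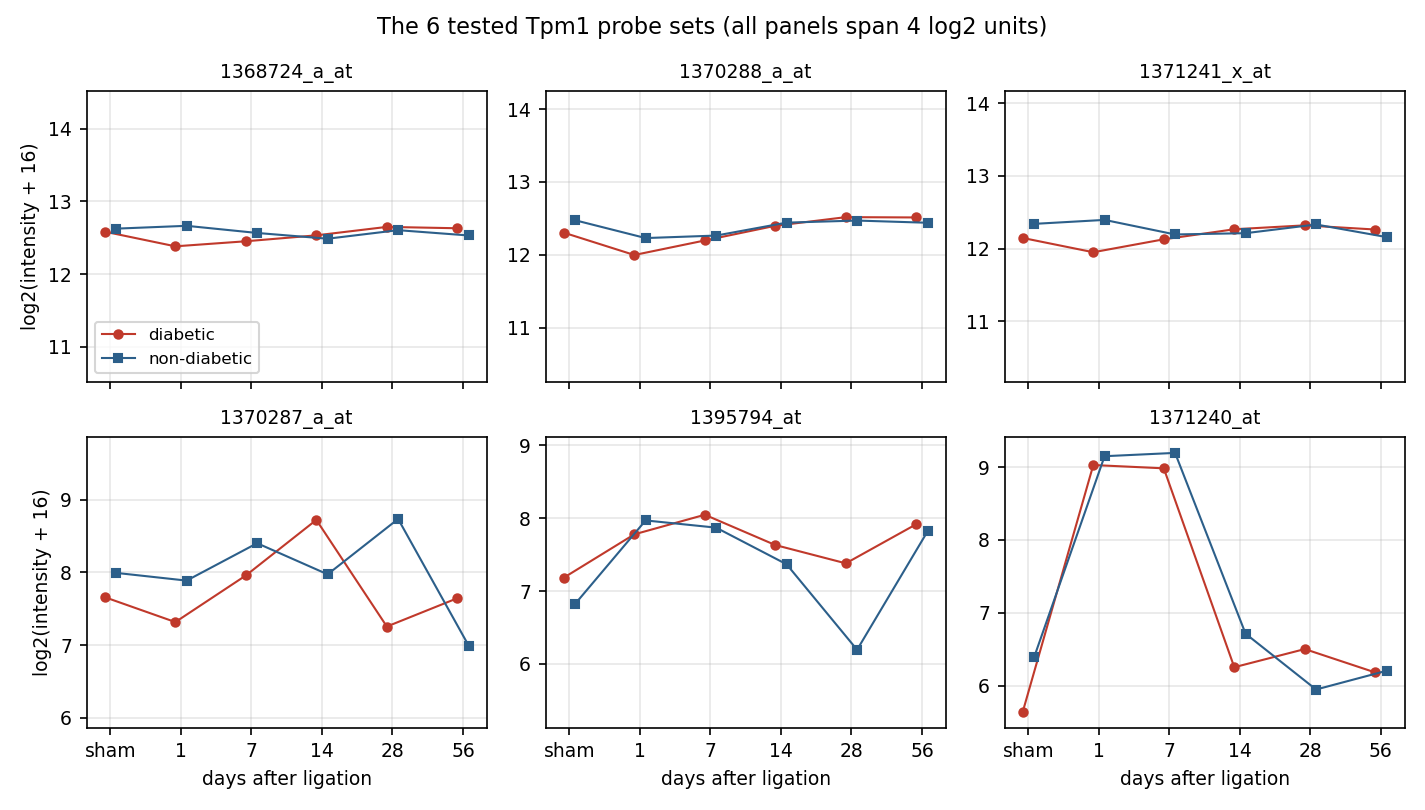
The 6 tested Tpm1 probe sets, log2(intensity + 16), on the diabetic (circles) and non-diabetic (squares) arrays by days after ligation, with panels of equal height. Probe set 1371240_at reads 8.98 to 9.20 on the 4 arrays of day 1 and day 7 and 5.64 to 6.71 on the others, while 1368724_a_at lies between 12.38 and 12.66.

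The genes whose main probe set ran closest to Tpm1 1371240_at over the 12 arrays, each centred on its own mean, were Cox5a, Rgcc and Spata1. Their root mean square differences from it were 0.295, 0.348 and 0.405 on the log2 scale, the smallest of 10613 genes, and this probe set was picked for the comparison after its values were seen.

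Titin varied most of the 10 genes, with a SD of 0.91 over the 12 arrays. Ttn 1375518_at read 10.58, 11.70, 11.75, 10.53, 12.51 and 12.52 on the diabetic sham, day 1, day 7, day 14, day 28 and day 56 arrays. The non-diabetic arrays read 10.65, 11.65, 11.97, 10.11, 10.35 and 12.52 in that order. Both conditions were high on day 56 and both were above sham on days 1 and 7. On day 28 they parted, with the diabetic array level with day 56 and the non-diabetic array slightly below sham. As intensities, day 28 read 5824 in the diabetic and 1287 in the non-diabetic pool.

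Against sham the Ttn values were 1.06 ± 0.45 on day 1 (limma adjusted p = 0.17), 1.25 ± 0.45 on day 7 (adjusted p = 0.11) and 1.90 ± 0.45 on day 56 (adjusted p = 0.14). None passed. Over the mean of the 5 days it was 0.95 ± 0.35 (adjusted p = 0.35), and in this comparison 0 of 10 genes and 0.107% of all probe sets were called. The day 28 pair changed these calls. Without its 2 arrays the same differences were called on day 1 (adjusted p = 0.0037), day 7 (adjusted p = 0.0013) and day 56 (adjusted p = 0.00048), and the mean was 0.98 (adjusted p = 0.0044). More probe sets of every kind were called then, at 14.5% on day 1, 15.3% on day 7, 4.09% on day 56 and 3.36% for the mean. With the beta-actin covariate Ttn was called on day 1 at 6.50 (adjusted p = 0.0099) and on day 7 at 6.54 (adjusted p = 0.0063). Both values exceed 2.41, the whole range of Ttn over the 12 arrays. The covariate is nearly the same split as days 1 and 7 against the rest, so these sizes cannot be relied on.

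The genes whose pattern over the 12 arrays was closest to that of Ttn, after centring, were Ccnt2, a cyclin of transcription elongation, Zbtb20, a zinc finger repressor, Ccnl2, Hipk2 and Masp2. Their root mean square differences from Ttn were 0.272, 0.291, 0.349, 0.374 and 0.379 on the log2 scale among 10613 genes. Ccnt2 read 7.51 and 5.45 on the diabetic and non-diabetic day 28 arrays, and 7.69 and 7.63 on those of day 56, parting on day 28 as Ttn did.

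On days 14, 28 and 56 limma called 0 of the 10 genes, with 0% of all probe sets called on each. On day 56 3 of the 10 genes, Ttn, Actn2 and Mybpc3, had an unadjusted p under 0.05 in limma, and 8 of the 20 probe sets did, against 16.4% of all probe sets. On days 14 and 28 0 of the 10 genes had one. Actn2 read 12.19 and 12.09 on the diabetic and non-diabetic day 56 arrays and 11.40 and 11.58 in sham, a difference of 0.65 ± 0.24 (adjusted p = 0.25). Mybpc3 read 11.87 and 11.79 against 11.14 and 11.39 in sham, a difference of 0.56 ± 0.25 (adjusted p = 0.30). For both genes the 2 arrays of day 56 lay above the 2 sham arrays.

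Other probe sets of Ldb3 and Myl2 gave larger values on day 56. Ldb3 1375303_at read 10.07 and 10.31 on the diabetic and non-diabetic day 56 arrays and 8.10 and 8.88 in sham, which is 1.70 ± 0.52 (adjusted p = 0.20). Myl2 1388293_at read 11.38 and 10.93, against 9.81 and 9.54 in sham, which is 1.48 ± 0.28 (adjusted p = 0.094). The main Myl2 probe set on the same arrays lay at -0.09 ± 0.14. Without the day 28 pair both Ldb3 1375303_at (adjusted p = 0.014) and Myl2 1388293_at (adjusted p = 0.0041) were called on day 56.

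**Figure D4:**
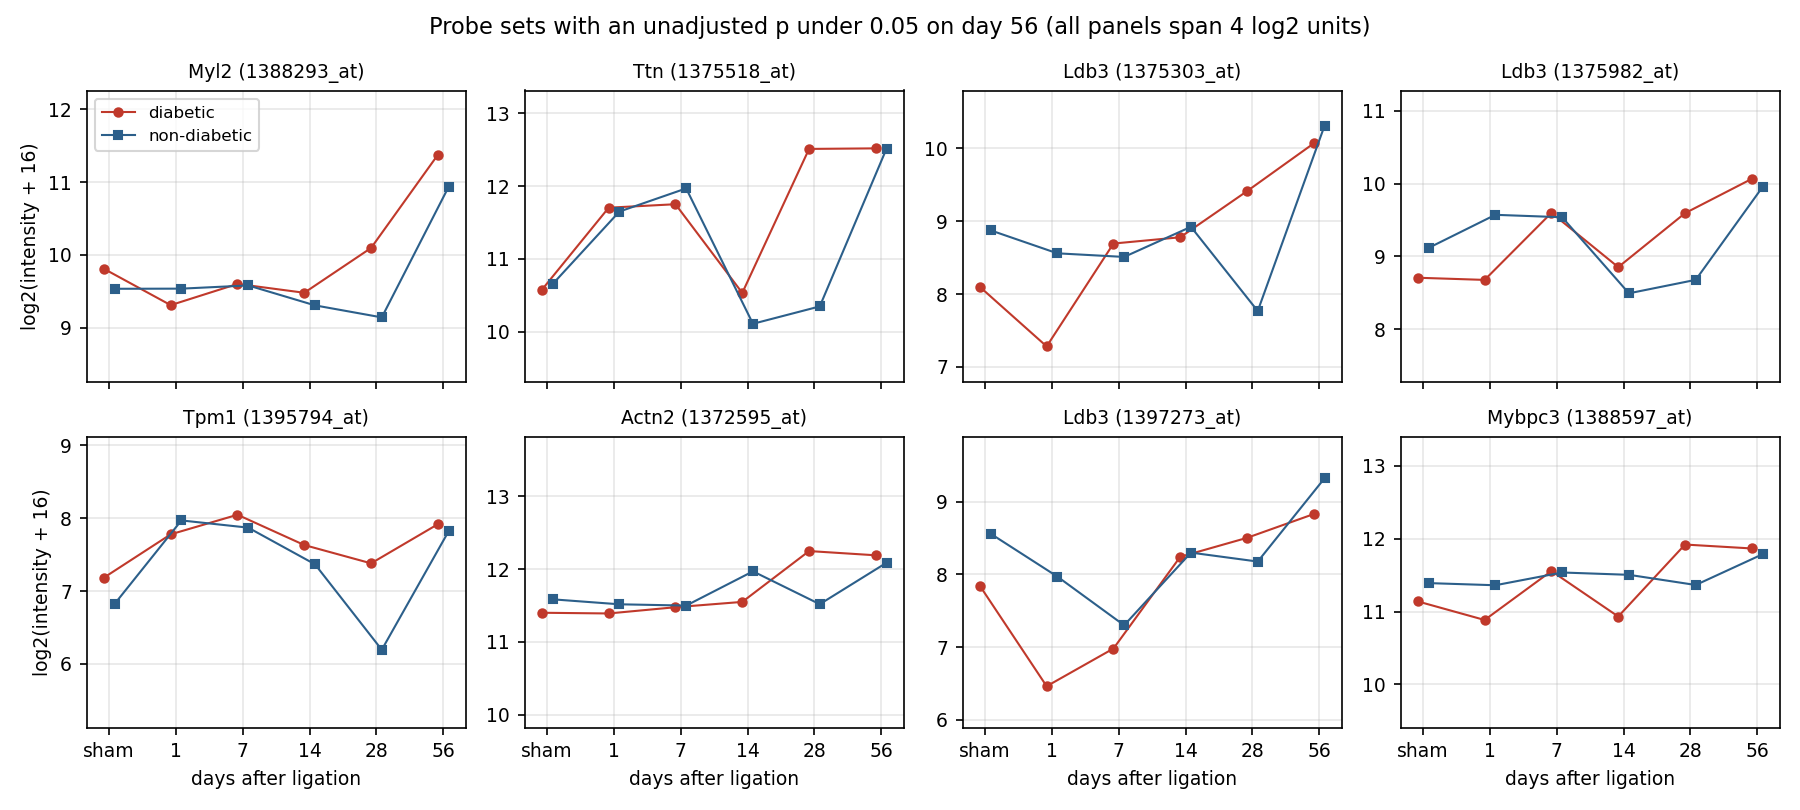
The 8 members' probe sets with an unadjusted p under 0.05 on day 56 against sham, in order of p, log2(intensity + 16), for diabetic (circles) and non-diabetic (squares) arrays by days after ligation, with panels of equal height. The diabetic day 28 array lies near the day 56 arrays for Ttn, Actn2 and Mybpc3, while the non-diabetic day 28 array lies near sham for them.

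Some other members read closer to day 56 on the diabetic day 28 array than on the non-diabetic one. Actn2 read 12.25 there and 11.52 on the non-diabetic day 28 array, and Mybpc3 read 11.92 and 11.37. Ldb3 1375303_at read 9.41 and 7.77, below its day 56 arrays in both. Myl2 1388293_at read 10.10 on the diabetic and 9.14 on the non-diabetic day 28 array, and Tpm1 1395794_at read 7.38 and 6.19. Both were thus closer to day 56 on the diabetic array too, but stayed below the diabetic day 56 array, at 11.38 and 7.92. The mean of the 10 main probe sets was 12.37 on the diabetic day 28 array and 12.01 on the non-diabetic one. It was 12.36 and 12.30 on day 56, and 11.89 to 12.18 on the other 8 arrays. On day 28 the diabetic minus non-diabetic differences were 2.16 for Ttn, 0.73 for Actn2 and 0.56 for Mybpc3. The main probe sets of the other genes lay between -0.15 and 0.11, so the gap in the mean is not shared by all 10. The diabetic day 28 array and the day 56 arrays also differed from the rest in macrophage markers and beta-actin difference. The 9 macrophage markers summed to 3079 on the diabetic day 28 array and 2098 and 944 on the day 56 arrays, and to 3706 to 7755 on the other 9. The beta-actin difference was 0.38, 0.37 and 0.41 on these 3 and 0.48 to 0.99 on the other 9. With the beta-actin covariate the day 56 differences from sham were 0.76 for Ttn, 0.19 for Actn2 and 0.12 for Mybpc3, and 0 of the 3 were called. The part of the macrophages was not tested, and for day 56 the labelled ages of the pools differ as well.

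**Figure D5:**
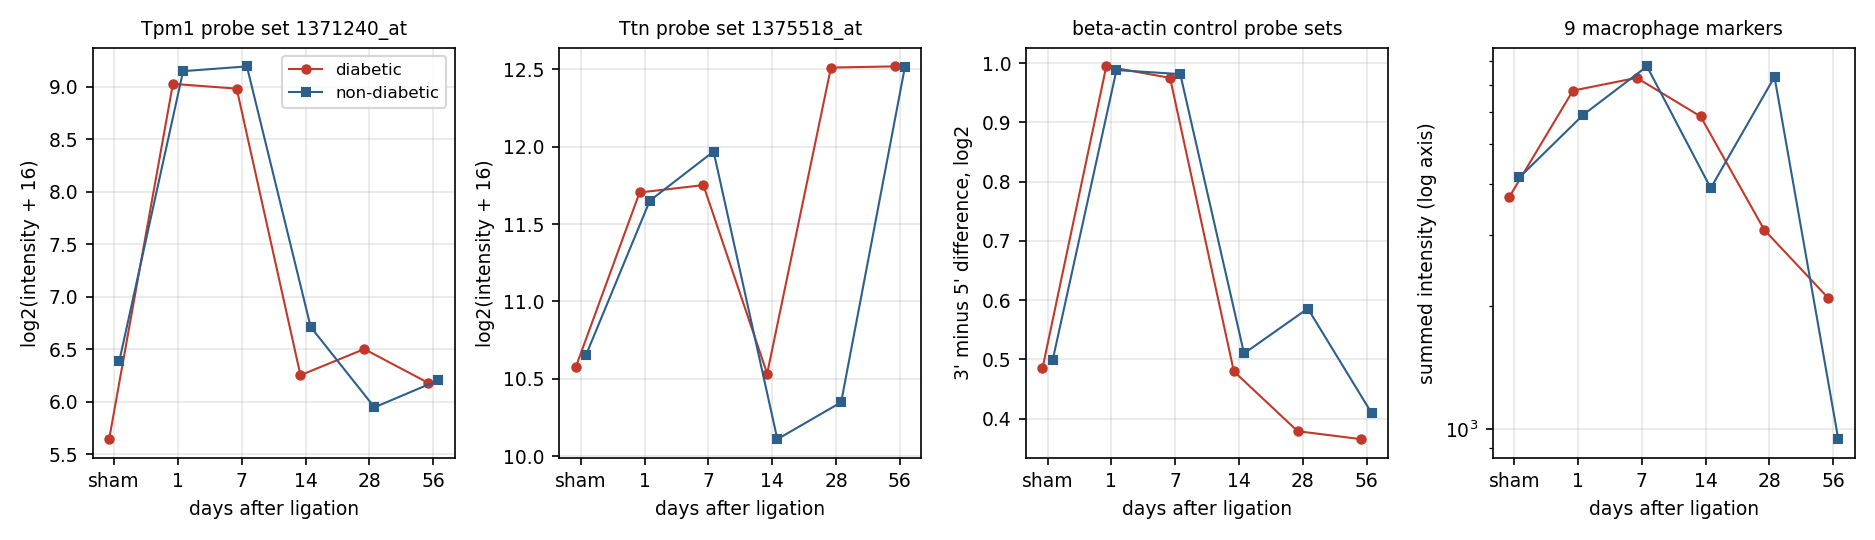
Tpm1 1371240_at and Ttn 1375518_at in log2(intensity + 16), beside the beta-actin 3' minus 5' log2 difference and the summed intensity of 9 macrophage markers (log axis), by days after ligation on diabetic (circles) and non-diabetic (squares) arrays. The beta-actin difference is 0.97 to 0.99 on days 1 and 7, and the macrophage sum is lowest at 944 on the non-diabetic day 56 array.

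Along the 5 days after ligation, 2 of the 10 genes rose with log2 of the day. Actn2 rose by 0.12 ± 0.04 per doubling of the day (limma adjusted p = 0.042) and the main probe set of Ldb3 by 0.17 ± 0.04 (adjusted p = 0.010). Of all probe sets 28.5% were called, against 20% of the 10 genes by main probe set and 35% of the members' 20 probe sets. Of the 20 probe sets 6 rose and 1 fell, where 10.1% of all probe sets rose and 18.4% fell (2537 rose and 2464 fell after quantile normalization, against 1879 and 3430 as deposited). Among the 6 were Ldb3 1397273_at at 0.32, Ldb3 1375303_at at 0.31, Myl2 1388293_at at 0.21 and Tpm1 1370288_a_at at 0.07. The one that fell was Tpm1 1371240_at, which fell by 0.59 per doubling. Of the 5 tested Ldb3 probe sets 3 rose, and 1371984_at and 1375982_at, at 0.03 and 0.08, did not pass. Without the day 1 and day 7 pairs 0 of 20 probe sets were called, with slopes of 0.19 for Actn2 and 0.07 for Ldb3 from fewer arrays. Without the day 56 pair 1 of 20 was called, Tpm1 1371240_at, and Actn2 and Ldb3 were at 0.09 and 0.15.

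The members' slopes also ran along the beta-actin difference. With the beta-actin difference as a covariate the slope of Actn2 was -0.39 and that of Ldb3 -0.16, and neither was called. Whether day or beta-actin difference set these slopes cannot be told apart, since that difference was high on the first 2 ligated days in both conditions.

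Other genes of the sarcomere, from lists drawn up by role, gave the setting for the 10. Of 31 other Z-disc and costamere genes 28 were tested, and on day 1 11 of the 28 rose and 0 fell, where 4.2% of all probe sets rose. Their median was 0.75, against 0.07 over all probe sets. Ankrd2, a stretch-responsive ankyrin repeat protein, rose by 4.31 ± 0.37 (limma adjusted p = 0.00011). Palld, an actin-binding scaffold, rose by 2.47 ± 0.35, Flnc, a filamin that crosslinks actin at the Z-disc, by 2.07 ± 0.30, and Fhl1, a LIM protein that binds titin, by 1.47 ± 0.23. These rises lay on the arrays with the high beta-actin difference. With it as a covariate 1 of the 28 was called on day 1, Palld, where 1.03% of all probe sets were, against 7.47% without it. The covariate is nearly the same split as days 1 and 7 against the rest, so this fit cannot tell the day from the beta-actin difference. The median of the 28 on day 1 was 0.65 with the covariate. On day 7 it was 0.29 without the covariate and 0.07 with it. This covariate fit of the lists was chosen after the values were seen. The neutrophil markers S100a8 and Csf3r rose on the same day by 2.48 and 1.61, with the sums given above, and their part was not tested. On day 7 1 of the 28 was called, Palld at 2.85.

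In the other lists the calls were as follows, beside 7.47% of all probe sets on day 1 and 7.65% on day 7. Of 14 other thin filament genes limma called 0 on day 1, with 5 at an unadjusted p under 0.05, and 0 on day 7, with 3. Of 13 other thick filament and M-band genes Mybpc2, a fast-muscle myosin-binding protein C, rose on day 1 by 1.28 ± 0.34 (adjusted p = 0.047), and Myl1, a light chain of fast skeletal muscle, rose on day 7 by 3.70 ± 0.58 (adjusted p = 0.0047). Of 8 sarcomere turnover genes Hspb1, a small heat shock protein, rose on day 1 by 1.35 ± 0.34 (adjusted p = 0.037). Of 11 transcription factors of cardiac muscle genes Myocd, the coactivator of serum response factor, rose by 1.19 on day 1 and 1.08 on day 7. Tbx5, a T-box factor, rose by 1.14 on day 1. With the beta-actin covariate 0 genes of these other lists were called on day 1 or day 7, where 1.03% and 1.44% of all probe sets were. That fit has the limit given above, as the covariate nearly repeats the split of these days from the rest. In the diabetic minus non-diabetic comparison limma called 0 of the 74 genes of these 5 lists, and 16 had an unadjusted p under 0.05, beside the 10.6% of all probe sets given above.

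Along the days the lists moved in both directions. Among thin filament genes 3 of 14 rose and 3 fell. Lmod2, which lengthens thin filaments, rose by 0.19 per doubling of the day, and Tpm3 and Tpm4, other tropomyosins, fell by 0.27 and by 0.22. Of the 13 thick filament and M-band genes 4 rose, among them Myh7 and Myh6, the myosin heavy chains of the heart, at 0.10 and 0.13. Of the 28 Z-disc and costamere genes 2 rose and 7 fell, with Ankrd2 falling furthest, at -0.80. Of the 8 sarcomere turnover genes 2 rose and 1 fell. Fbxo32 and Trim63, muscle ubiquitin ligases that mark proteins for breakdown, rose by 0.30 and 0.16, and Hspb1 fell by 0.25. Of the 11 transcription factors Gata4, a zinc finger factor of heart development, rose by 0.11 and Tbx5 fell by 0.23. With the beta-actin covariate 0 genes of these lists were called, where 0.123% of all probe sets were. These slopes span the same split in the beta-actin difference as those of the 10 genes, so that fit cannot tell the day from the covariate.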

How the data were processed

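Per the labels, each array held biotin-labelled RNA pooled from 3 rats. The authors deposited 1 linear intensity per probe set and array, made with Affymetrix Expression Console and PLIER per the submitters' processing notes. Their versions, and any background or scaling step, were not given in the sources used here, and no header records them. Whether bright probe sets saturate, or background shrinks dim differences, cannot be read from such values.

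From these intensities log2(intensity + 16) was computed, without further scaling. Of 31042 probe sets (57 controls removed), 18625 had a mean above the 40th percentile. Differences were fitted with limma 3.58.1 in R 4.3.3, on the time point (6 levels) and diabetes over 12 arrays, with 5 residual degrees of freedom and a variance trend; p-values were adjusted by Benjamini-Hochberg. Errors are standard errors unless given as SD. P-values measure the spread between pooled arrays; precision is limited by the 12 arrays. The scripts were tested on simulated data.

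Groups follow treatment and protocol labels; the tissue label of the sham arrays speaks of an infarct, and the sham protocol was followed. No batch or scan date was given.

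Named genes are all 10 members, up to 4 called genes with the smallest p per list and comparison, and the 5 genes nearest in pattern to the most variable member. Members and lists were chosen with earlier results of these data known. Alternatives covered the offset, filter, scaling, variance model, choice of probe set, pairs left out and a beta-actin covariate.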

Additional observations from a re-analysis of the deposited data

Results flagged for a closer look

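Among the diabetic minus non-diabetic differences of the 20 tested probe sets, 1 probe set had a time point far from the other 5. Ttn 1375518_at differed by 2.16 on the log2 scale on day 28, from 12.51 on the diabetic and 10.35 on the non-diabetic array. The other 5 pairs lay between -0.22 and 0.42. The gap was 0.731 of the whole range, past Dixon's critical value for 6 values at the 95% level. Chance alone would mark about 1 in 20 probe sets, and 20 were examined.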

How the results depend on the processing

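Of 643 recomputed values of single probe sets, 595 kept their direction and their side of the threshold, or had not been called in either setting; 30 were no longer called, 12 became called and 6 that had been called changed sign. These 6 were slopes with the beta-actin covariate: Myl2 1388293_at -0.33, Tpm1 1370288_a_at -0.0377, Actn2 -0.39, Ldb3 1372737_at -0.16, Ldb3 1375303_at -0.99 and Ldb3 1397273_at -0.33. Of the values not called in either setting 30 also changed sign, all of them diabetic minus non-diabetic differences, and 8 of these went past 0.15: Ttn -0.14 (0.39 as reported), Actn2 -0.20, Tpm1 1370287_a_at 0.06 and Ldb3 1375982_at -0.29 with the covariate, Tpm1 1370287_a_at 0.01 and Ldb3 1375982_at -0.15 without the day 28 pair, and Actn2 -0.19 and Ldb3 1375982_at -0.22 without the day 28 and day 56 pairs. The beta-actin difference is nearly the same split as days 1 and 7 against the rest, so that fit has little left to separate them.

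For the 10 genes, calls on day 1, day 7 and the mean of the 5 days became 1 each without the day 28 pair, without the day 28 and day 56 pairs (added after seeing the data) and with the covariate. On day 56 the call became 1 without the day 28 pair. Slope calls, 2 as reported, became 4 with quantile normalization and without the day 28 pair, 1 without variance trend, without the sham, day 1 or day 7 pair, with the covariate and without the day 28 and day 56 pairs, and 0 when day 56 or days 1 and 7 together were left out.

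For the 20 probe sets, calls on day 1 became 3 without the day 28 pair, 2 with the covariate and 3 without the day 28 and day 56 pairs; on day 7 they became 4, 3 and 3 in the same settings. Slope calls, 7 as reported, became 4 without the day 1 pair, 1 without the day 56 pair, 0 without the day 1 and day 7 pairs, 1 with the covariate and 2 without the day 28 and day 56 pairs. Causes were not tested. Counts for diabetes and for both interactions were 0 under every alternative run. The test of diabetes was paired by time point, as reported; the labels carry no replicate numbers for another pairing.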
